A study of Homo sapiens with 4 samples.

Results

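TRIB1 was the gene listed as closest to 7 of the 5326 regions compared in chromatin immunoprecipitation with sequencing (ChIP-seq) of HNF4A in HCCLM3, an established human hepatocellular carcinoma cell line. The 7 regions were found by the authors' closest-gene column, which gave TRIB1 for the same 7 positions in all 3 deposited tables. The gene itself was chosen by its number of regions and its read ratios in these same libraries, so its values are given as a description and no test of them is offered. Closeness is the authors' annotation and does not show that a region acts on the gene.

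The study asked which genes HNF4A occupies at different glucose levels. There were 4 groups of 1 library each: HNF4A antibody in high glucose, IgG in high glucose, HNF4A antibody in low glucose and IgG in low glucose. IgG is a nonspecific antibody and gives the background. The shared protocol describes lentiviral overexpression lines of HCCLM3, without saying which gene was overexpressed in which library, and names a high glucose medium for all 4 samples without giving a concentration. No difference below has a replicate check.

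TRIB1 encodes a Tribbles pseudokinase, a protein with a kinase fold that has little or no catalytic activity of its own. It works as a scaffold that brings substrates, among them the transcription factor C/EBP alpha, to the ubiquitin ligase COP1 for degradation, and it also binds the kinase MEK1. In mouse liver Trib1 restrains lipid synthesis and lipoprotein secretion, and the human locus is known for its association with plasma triglycerides and cholesterol. HNF4A is a nuclear receptor that drives much of the hepatocyte programme, including lipoprotein genes.

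The regions are called A to G here in order of position on chromosome 8 (hg19, counted from 1). Region A ran from 126283396 to 126284253, region B from 126422613 to 126423663, region C from 126440876 to 126443231 and region D from 126524344 to 126525990. Region E ran from 126583705 to 126584615, region F from 126605656 to 126606849 and region G from 126675380 to 126676217. They spread over 393 kb, with gaps of 17.2 to 138 kb between neighbours. Region C was the longest at 2356 bp, longer than 93.6% of all regions, and region G the shortest at 838 bp. No hg19 gene annotation was used here, so which region covers the TRIB1 start, an exon or an intron was not determined.

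Most listed genes had fewer regions: 3662 of 4323 had 1 region, and 13 had 7 or more, TRIB1 among them. The spacing itself was common. On chromosome 8 there were 45 overlapping runs of 7 successive regions within 393 kb or less, the TRIB1 stretch being one of them, and over all chromosomes there were 718. In the GRCh38 gene order TRIB1 has NSMCE2 as its coding neighbour on one side and LRATD2 on the other, with the long noncoding RNA TRIB1AL beside it. The nearest region with another listed gene was that of NSMCE2, 145 kb before region A, and the next after region G lay 637 kb away at LOC101927657.

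Summed over the 7 regions, TRIB1 had 538 reads with HNF4A and 232 with IgG in high glucose, and 331 with HNF4A and 166 with IgG in low glucose. HNF4A thus exceeded IgG at both glucose levels. Reads were divided by relative library size before any comparison, and each bracketed range is an exact 95% counting interval (Clopper-Pearson). The log2 of HNF4A over IgG is called the enrichment. Summed over the locus, the log2 enrichment was 1.07 (0.84 to 1.30) in high glucose and 0.97 (0.70 to 1.25) in low glucose. The median region of all 5326 stood at 0.79 and 0.94. The low glucose interval of the locus included that median, while the high glucose interval lay above it. A sum over a locus and a median of single regions are unlike measures, so this gives no contrast between the glucose levels. A sum weights the regions by their reads, and region C had the most. Without region C the summed log2 enrichment was 1.28 in high and 1.45 in low glucose. The median of the 7 regions was 1.13 in high and 1.43 in low glucose, above the median of all regions at both levels. Without region F the summed log2 enrichment was 0.94 in high and 1.02 in low glucose. Which glucose level stood higher in the sum thus depended on region C and on region F.

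Region A held 39 HNF4A and 11 IgG reads in high glucose, and 27 and 10 reads in low glucose. Its log2 enrichment over IgG was 1.68 (0.69 to 2.79) in high and 1.41 (0.31 to 2.62) in low glucose. It was the region least covered with HNF4A in high glucose, and both of its intervals lay above 0.

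Region B held 76 HNF4A and 33 IgG reads in high glucose, a log2 enrichment of 1.06 (0.45 to 1.69). In low glucose it held 58 and 20 reads, a log2 enrichment of 1.51 (0.75 to 2.32). Per kb of length it was the densest of the 7 with HNF4A in low glucose, at 55.2 scaled reads per kb, above 92.1% of all regions.

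Region C had the most reads of the 7 in every library. It held 151 HNF4A and 88 IgG reads in high glucose, a log2 enrichment of 0.63 (0.24 to 1.03), and 77 and 75 in low glucose, a log2 enrichment of 0.01 (-0.47 to 0.49). In low glucose the interval of this region thus included 0, and its ratio was higher than that of only 8.67% of all regions. Both ratios were the lowest of the 7 for their glucose level. Long regions had low ratios in general: the 559 regions of at least 2 kb had median log2 ratios of 0.41 in high and 0.56 in low glucose. The low glucose ratio of region C was low among these too, since 53 of the 559 had a lower one. Whether length accounts for it was not tested.

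Region D held 88 HNF4A and 44 IgG reads in high glucose, and 72 and 22 reads in low glucose. The log2 enrichment over IgG was 0.85 (0.32 to 1.41) in high and 1.68 (0.98 to 2.44) in low glucose. Its HNF4A reads stood at 88 in high and 72 in low glucose before scaling, and its IgG reads at 44 and 22.

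Region E held 51 HNF4A and 21 IgG reads in high glucose, and 33 and 12 reads in low glucose. Its log2 enrichments were 1.13 (0.37 to 1.94) and 1.43 (0.44 to 2.52). Region G held 45 HNF4A and 15 IgG reads in high glucose, and 37 and 8 reads in low glucose. At 2.18 (1.06 to 3.50), its low glucose ratio was the highest of the 7, above that of 90.7% of all regions, and it rested on the 8 IgG reads. In high glucose region G stood at 1.44 (0.57 to 2.39).

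Region F held 88 HNF4A and 20 IgG reads in high glucose, a log2 enrichment of 1.99 (1.28 to 2.77), which is a 3.98-fold excess and the highest of the 7. In low glucose it held 27 HNF4A and 19 IgG reads, a log2 enrichment of 0.48 (-0.42 to 1.41). HNF4A thus stood nearly 4-fold above IgG in high glucose, while in low glucose the interval of the ratio included 0.

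**Figure D1:**
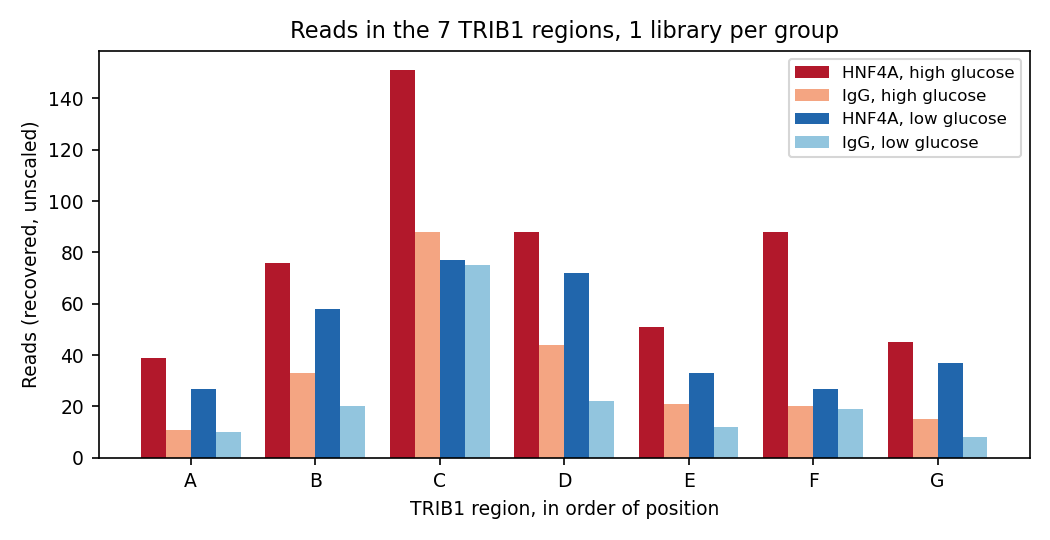
Reads in each TRIB1 region (A to G, horizontal axis) in the 4 libraries, as recovered whole reads without scaling. Region C is the tallest in every library, and region F shows 88 HNF4A reads in high glucose against 27 in low glucose, with 20 and 19 IgG reads.

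By the fold, 5 of the 7 regions reached a 2-fold excess over IgG in high glucose (A, B, E, F and G) and 5 in low glucose (A, B, D, E and G). No label or header states how the 5326 regions were picked, so what that choice contributes to the ratios over IgG was not tested. Of all regions, 41.6% reached it in high glucose and 46.8% in low glucose. Regions A, B, E and G did so at both glucose levels, as did 31.4% of all regions. The counting interval lay above 0 in 7 of 7 TRIB1 regions in high glucose, against 55.2% of all regions, and in 5 of 7 in low glucose, against 56.2%. The exceptions in low glucose were regions C and F. An interval clears 0 more easily with more reads. The median TRIB1 region held 76 HNF4A and 21 IgG reads in high glucose, where all regions had medians of 50 and 26. Region C cleared 0 in high glucose on 151 HNF4A reads at 0.63, below the median of all regions at 0.79. The counts past 2-fold and those of intervals above 0 depended on the scaling. Scaling by reads over all regions sets the ratio summed over all regions to 0 by construction. With libraries scaled by their reads over all regions, 2 of 7 regions reached 2-fold in high glucose (A and F) and 2 in low glucose (D and G), against 23.9% and 24.1% of all regions. The interval then lay above 0 in 3 of 7 in high glucose (A, F and G), against 29.6% of all regions, and in 3 in low glucose (B, D and G), against 24.2%. These shares describe the libraries, since TRIB1 was chosen with such values known.

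In the authors' deposited tables no TRIB1 region passed a false discovery rate (FDR) of 0.05 over IgG, and none of the 5326 regions did. In the authors' deposited table for high glucose the unadjusted p of the TRIB1 regions ran from 0.0542, at region F, to 0.381, and 265 of all regions lay under 0.05. In the authors' deposited low glucose table it ran from 0.0798, at region D, to 0.988, at region C, and 162 of all regions lay under 0.05.

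Across the 7 regions the ratio over IgG in high glucose and that in low glucose ranked almost without relation, with a Spearman correlation of -0.04. Across all 5326 regions it was 0.61, and across the 346 regions of chromosome 8 also 0.61. These are descriptions over regions that share the same 4 libraries. A rank correlation over 7 regions is imprecise, and its difference from that of all regions was not tested. Region F ranked first in high glucose and sixth in low glucose, and region D ranked sixth in high and second in low glucose.

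**Figure D2:**
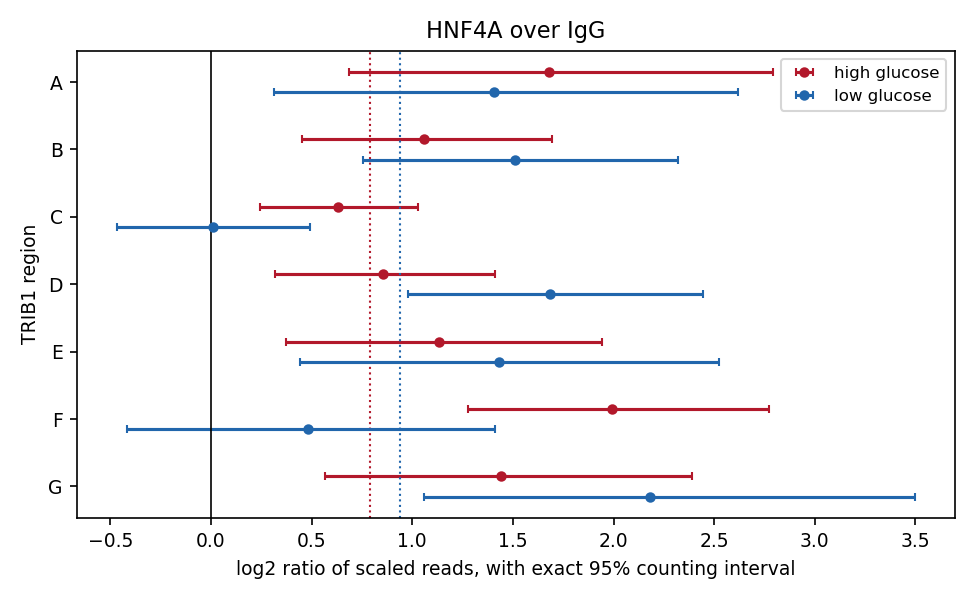
Log2 ratio of scaled reads, HNF4A over IgG, for each TRIB1 region in high glucose (upper point of each pair) and in low glucose (lower point). Bars are exact 95% counting intervals, dotted lines the medians of all 5326 regions (0.79 in high and 0.94 in low glucose), and the intervals that reach below 0 are those of regions C and F in low glucose.

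Between the glucose levels, HNF4A reads were higher in high glucose in all 7 TRIB1 regions after scaling, as in 81.8% of all regions, but in 4 of 7 when libraries were scaled by their reads over all regions, which put B, D and G below 0. That scaling lowered every HNF4A log2 high-to-low ratio by 0.31 and left the median of all regions at 0.05. The summed HNF4A log2 high-to-low ratio was 0.57 (0.36 to 0.77), a 1.48-fold excess, where the median of all regions was 0.36. IgG moved the same way: its summed log2 ratio was 0.47 (0.17 to 0.76), where the median of all regions was 0.51. All 7 regions had more IgG in high glucose, as did 77.9% of all regions. With the scaling by reads over all regions 4 of 7 did, which put A, C and F below 0. The IgG median of all regions was then 0.20. The summed log2 enrichment over IgG was higher in high glucose by 0.10 (-0.26 to 0.46, exact conditional interval of the odds ratio).

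The excess of HNF4A in high glucose was uneven along the locus. Region F had 88 HNF4A reads in high and 27 in low glucose, a log2 high-to-low ratio of 1.57 (0.93 to 2.25) or 2.97-fold, while its IgG reads were 20 and 19, a log2 ratio of 0.06 (-0.92 to 1.04). By its HNF4A high-to-low ratio it ranked 36th of the 5326 regions, and among the 1644 regions with at least as many HNF4A reads it ranked sixth. In the authors' deposited table the unadjusted p for region F was 0.00644 and its FDR 0.914. Region F was the TRIB1 region that reached a 2-fold excess, against 6.78% of all regions, and also the one whose unadjusted p in the authors' deposited table lay under 0.05, against 4.39% of all regions that were higher with such a p. No region of that table passed an FDR of 0.05, and 246 had an unadjusted p under 0.05 in either direction.

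Region C followed, with 151 HNF4A reads in high and 77 in low glucose, a log2 high-to-low ratio of 0.84 (0.43 to 1.25). Its IgG reads were 88 and 75, a log2 ratio of 0.21 (-0.25 to 0.68). Regions C and F were the 2 TRIB1 regions whose HNF4A interval lay above 0, against 25.8% of all regions. Their low glucose intervals over IgG included 0, a ratio that shares the HNF4A reads in low glucose with the high-to-low ratio, so the 2 observations are not separate.

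In the other 5 regions the HNF4A log2 high-to-low ratio was between 0.15, at regions D and G, and 0.49, at region E, and every interval included 0. IgG shifted more than HNF4A in 4 of these 5. At region D the IgG log2 ratio was 0.98 (0.21 to 1.79), the one TRIB1 region whose IgG interval lay above 0, against 26.2% of all regions. With scaling by reads over all regions no TRIB1 region had an IgG interval above 0, against 10.6% of all regions. At regions B, E and G the IgG log2 ratios were 0.71 (-0.14 to 1.59), 0.79 (-0.30 to 1.95) and 0.89 (-0.44 to 2.34). At region A it was 0.12 (-1.25 to 1.51).

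**Figure D3:**
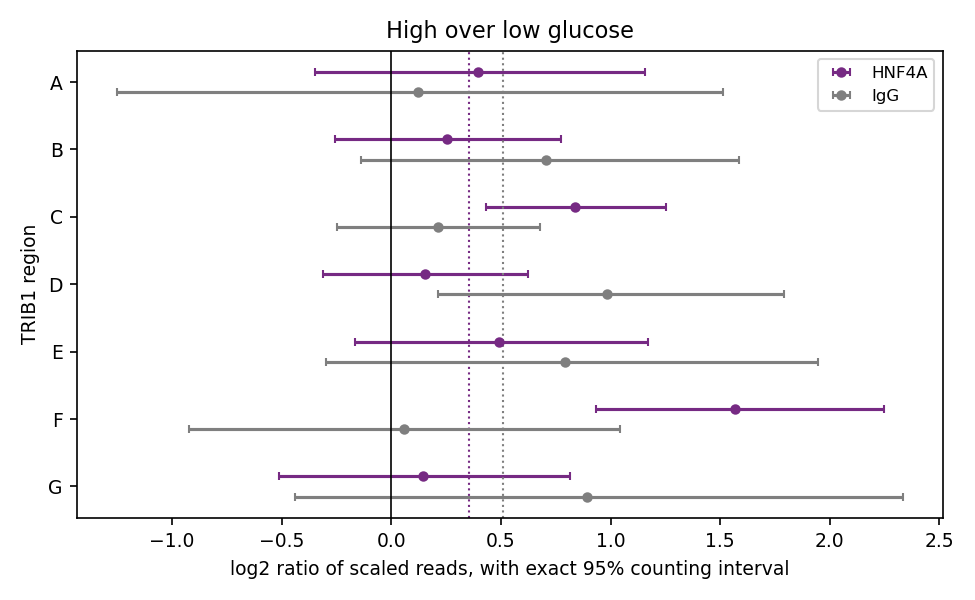
Log2 ratio of scaled reads in high over low glucose for each TRIB1 region, HNF4A as the upper point of each pair and IgG as the lower. Bars are exact 95% counting intervals and dotted lines the medians of all regions (0.36 for HNF4A, 0.51 for IgG); regions C and F have HNF4A intervals above 0, and region D has the IgG interval above 0.

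The HNF4A over IgG ratio was therefore lower in high than in low glucose in 4 of the 7 regions (B, D, E and G), as in 58.3% of all regions, and higher in A, C and F. The difference of the log2 ratios was 1.51 (0.30 to 2.70) at region F, higher than in 96.6% of all regions. It was 0.62 (-0.01 to 1.25) at region C and 0.27 (-1.33 to 1.86) at region A. At region D it was -0.83 (-1.77 to 0.09), at region G -0.74 (-2.34 to 0.77), at region B -0.45 (-1.48 to 0.55) and at region E -0.30 (-1.65 to 1.01). Region F was the one region whose interval, unadjusted for the 7 regions, excluded 0.

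Leaving out one region at a time shows what the sum rested on. Without region F the summed HNF4A log2 high-to-low ratio was 0.43 (0.22 to 0.64), and without region C it was 0.47 (0.24 to 0.71). The difference of the summed ratios over IgG, which was 0.10 with all 7 regions, was -0.08 (-0.46 to 0.30) without region F and -0.17 (-0.64 to 0.28) without region C. Region C alone held 28.1% of the summed HNF4A reads in high glucose and 23.3% in low glucose. Region F held 16.4% of them in high glucose and 8.16% in low glucose.

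**Figure D4:**
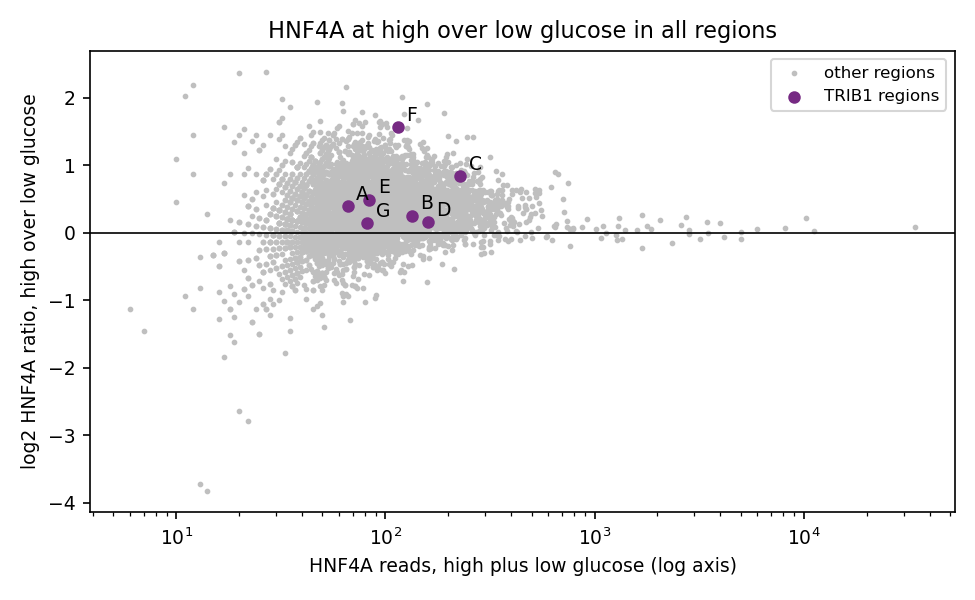
HNF4A log2 high-to-low ratio (vertical axis) against the HNF4A reads of both libraries together (horizontal log axis) for all 5326 regions in grey, with the TRIB1 regions in purple. Region F stands at 1.57 near the upper edge of the regions with similar reads, region C at 0.84, and the other 5 between 0.15 and 0.49.

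Against its surroundings, TRIB1 was set beside the 18 other regions within 2 Mb on either side, the 339 other regions of chromosome 8 and the 4980 regions of other chromosomes. The median TRIB1 region held 51.0 scaled HNF4A reads per kb in high glucose, against 41.7 in the regions within 2 Mb, 43.5 in the rest of chromosome 8 and 41.5 elsewhere. In low glucose the HNF4A medians were 36.2, 31.7, 35.9 and 32.9 scaled reads per kb in the same order. IgG in high glucose had medians of 23.2, 22.2, 29.4 and 24.9 scaled reads per kb, and IgG in low glucose 13.6, 17.5, 21.1 and 16.8. Against the rest of their chromosome, the TRIB1 medians were thus higher for HNF4A in high glucose and lower for IgG at both glucose levels, without a test, while the HNF4A medians in low glucose were 36.2 and 35.9.

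Of the 18 regions within 2 Mb, 11 were at least 2-fold above IgG in high glucose and 9 in low glucose, with median log2 enrichments of 1.30 and 1.07. Of all regions 41.6% and 46.8% were, so the low glucose count was near the background. The region nearest to NSMCE2, a SUMO ligase gene of the SMC5/6 complex, ran from 126137537 to 126138662 and was the densest of the window. It held 125 HNF4A and 31 IgG reads in high glucose, a log2 enrichment of 1.87 (1.29 to 2.48), and 78 and 19 reads in low glucose, a log2 enrichment of 2.01 (1.27 to 2.82). The difference of its log2 ratios was -0.15, where that of region F was 1.51.

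A log2 enrichment over IgG higher by at least 1 in high glucose, as at region F, occurred in 2 of these 18 regions and in 8.49% of all regions. One was a region of FBXO32, an F-box ubiquitin ligase gene, from 124511053 to 124511853. It held 37 HNF4A and 8 IgG reads in high glucose, and 16 and 15 reads in low glucose. The other was a region of MTSS1, a gene of actin and membrane organisation, from 125763512 to 125764341, with 35 and 8 reads in high glucose, and 17 and 18 in low glucose. Their IgG log2 high-to-low ratios were -0.92 (-2.37 to 0.41) at FBXO32 and -1.19 (-2.60 to 0.09) at MTSS1. At region F the IgG log2 ratio was 0.06 (-0.92 to 1.04). All 3 intervals included 0, which on so few IgG reads does not show that IgG was unchanged. Over the whole of chromosome 8, 13 of 346 regions (3.76%), region F included, reached a 2-fold excess of HNF4A in high over low glucose.

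**Figure D5:**
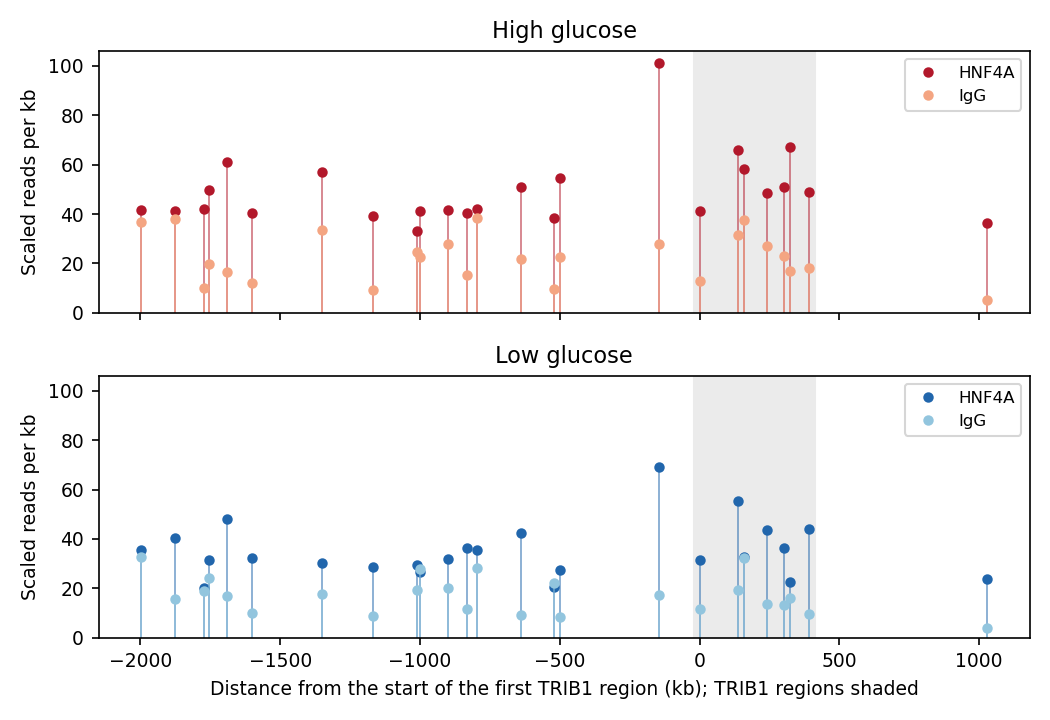
Scaled reads per kb of region length for HNF4A and IgG in the 25 regions from 2 Mb before to 2 Mb after the TRIB1 regions, in high glucose (top) and low glucose (bottom), by distance from the start of region A in kb. The TRIB1 regions are shaded; the tallest HNF4A value is that of NSMCE2 just before them, and 637 kb without a listed region follows them.

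Among genes with at least 4 regions, reads were summed per gene and library, scaled, put on a log2 scale and centred on the gene's own mean over the 4 libraries. Of 50 other genes, those nearest to TRIB1 by Euclidean distance over the 4 libraries were ASAP1, TNS3, PRKAG2, PVT1 and PPP1R15B, at distances of 0.11 to 0.20, where the median was 0.54. ASAP1 and PVT1 lie on chromosome 8, as did 6 of the 50. ASAP1, an ARF GTPase-activating protein gene, had 491 HNF4A and 217 IgG reads over 6 regions in high glucose, and 280 and 144 in low glucose. Its summed log2 enrichments over IgG were 1.03 in high and 0.93 in low glucose, beside 1.07 and 0.97 for TRIB1. PVT1, a long noncoding RNA gene, stood at 1.24 and 1.07. Of the 50 genes, 7 had a higher summed HNF4A high-to-low ratio than TRIB1, and 16 a higher ratio over IgG in high glucose. The 50 include genes with little or no excess over IgG, so a place among them does not set TRIB1 apart. MTRNR2L1 stood at -0.43 in high and -0.05 in low glucose. LINC00273, the farthest from TRIB1, stood at 0.13 and -0.48.

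Of the Tribbles family, TRIB3 had a region besides TRIB1, while TRIB2 and the related STK40 had none. TRIB3 encodes a stress-induced Tribbles pseudokinase, and its region (chromosome 20, 361330 to 361968) held 33 HNF4A and 12 IgG reads in high glucose, and 16 and 6 in low glucose. Its log2 enrichments over IgG were 1.31 (0.32 to 2.40) and 1.39 (-0.04 to 3.03), so it lay within the range of the TRIB1 regions on fewer reads.

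Of 6 genes of the ubiquitin ligase that Tribbles proteins recruit, DDB1, an adaptor of cullin ligases, had a region, with log2 enrichments of 0.39 (-0.43 to 1.25) in high and 1.02 (0.06 to 2.06) in low glucose. COP1 itself had none. A list of 16 genes was made for proteins that Tribbles proteins bind or steer to degradation, C/EBP family members included. Such binding is not established here for each gene. Of the 16 genes, 5 had a region. One of these 5 was at least 2-fold above IgG in high glucose and 3 were in low glucose, beside 41.6% and 46.8% of all regions. Their medians were 0.52 and 1.02, where all regions had medians of 0.79 and 0.94. MLXIPL, which encodes the carbohydrate-responsive factor ChREBP, held 98 HNF4A and 21 IgG reads in high glucose, and 52 and 11 in low glucose, for log2 enrichments of 2.08 (1.39 to 2.83) and 2.21 (1.26 to 3.30). CEBPD and CEBPG, of the C/EBP family, stood lower, at 0.52 (-0.03 to 1.09) and 0.06 (-0.54 to 0.66) in high glucose and at 0.35 (-0.33 to 1.04) and 0.67 (0.01 to 1.36) in low glucose. HNF4A itself stood at 0.64 (-0.11 to 1.41) in high and 1.02 (0.14 to 1.94) in low glucose. MAP2K1, the gene of MEK1, was named after its values were seen. It held 12 HNF4A and 16 IgG reads in high glucose, and 16 and 4 in low glucose, for log2 enrichments of -0.56 (-1.77 to 0.61) and 1.97 (0.34 to 4.01). CEBPA had no region.

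Of 18 genes of lipid synthesis and lipoprotein secretion, 5 had a total of 6 regions, 4 of them at least 2-fold above IgG in high glucose and 3 in low glucose, beside 41.6% and 46.8% of all regions. Their medians were 1.76 and 2.03, against 0.79 and 0.94 for all regions. DGAT1, a triglyceride synthesis enzyme gene also on chromosome 8, had the most HNF4A reads, with log2 enrichments of 0.20 (-0.17 to 0.58) in high and 0.62 (0.16 to 1.10) in low glucose. APOE and APOA1, which encode apolipoproteins, stood at 0.73 (0.16 to 1.31) and 2.0 (0.79 to 3.43) in high glucose and at 0.07 (-0.70 to 0.84) and 3.78 (1.79 to 6.90) in low glucose, APOA1 on 7 and 2 IgG reads. SREBF1, the gene of a master activator of lipid synthesis, had regions at 2.23 (1.24 to 3.37) and 2.98 (1.5 to 4.94) in high glucose, and at 0.59 (-0.35 to 1.56) and 3.43 (1.41 to 6.57) in low glucose, the second on 4 and 2 IgG reads. Its first region had 52 HNF4A and 10 IgG reads in high glucose, and 26 and 17 in low glucose, so that, as at region F of TRIB1, the excess over IgG was larger in high glucose. The HNF4A log2 high-to-low ratio of that SREBF1 region was 0.86 (0.16 to 1.60), beside 1.57 at region F. Its IgG log2 ratio was -0.78 (-2.07 to 0.43), beside 0.06 at region F. Both IgG intervals included 0, which on so few IgG reads does not show that IgG was unchanged. GPAM, a glycerol phosphate acyltransferase gene named after its values were seen, held 19 HNF4A and 6 IgG reads in high glucose, and 19 and 1 in low glucose. Its log2 enrichments were 1.52 (0.14 to 3.13) and 4.22 (1.57 to 9.60).

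Of 19 other genes of band 8q24, 10 had 19 regions in all, 12 of them at least 2-fold above IgG in high glucose and 9 in low glucose, beside 41.6% and 46.8% of all regions, so the low glucose count was near the background. Their medians were 1.41 and 0.97, against 0.79 and 0.94 for all regions. Those with the most HNF4A reads in 1 region were PVT1, ASAP1, NSMCE2 and RNF139, a ubiquitin ligase gene. The leading PVT1 region stood at 0.98 (0.61 to 1.37) in high and 1.44 (0.87 to 2.05) in low glucose, and that of ASAP1 at 0.91 (0.50 to 1.34) and 0.81 (0.22 to 1.43). RNF139 stood at 0.13 (-0.34 to 0.60) and 0.32 (-0.23 to 0.87). MYC, the oncogene of this band, was named after its values were seen and had a region from 128754906 to 128756047 with 86 HNF4A and 14 IgG reads in high glucose, and 36 and 18 in low glucose. Its HNF4A log2 high-to-low ratio was 1.12, one of 3 of the 19 regions that reached a 2-fold excess, beside 6.78% of all regions. The other 2 were regions of ASAP1, at 1.08 and 1.01.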

How the data were processed

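ChIP-seq libraries of HNF4A and IgG at high and low glucose were compared, 1 library per group. The submitters' processing notes name build hg19 and, with no settings, DiffBind, HOMER, MACS, Bowtie 1.1.2 and bcl2fastq. The authors deposited 3 tables with a log2 level for each side, their log2 fold, a p-value and an FDR for each of 5326 regions. No source says how the regions were selected.

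On the linear scale the levels of each library rise in equal steps (tolerance 0.01 of a step), which gave back whole reads and relative library sizes. These were 1.10 for HNF4A and 0.993 for IgG in high glucose, and 1 for HNF4A and 0.982 for IgG in low glucose. The total depth is not known here. Over all regions the 4 libraries held 402237, 249744, 295460 and 198683 reads. In the deposited table without IgG, the side at high glucose was identified by its reads, which equalled those of the other table in 100% of regions.

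Log2 ratios of scaled reads carry exact 95% Clopper-Pearson intervals, and differences of ratios an exact conditional interval (scipy 1.17.1, Python 3.11.15). Both cover counting error only and neither compares conditions, since each group held 1 library. Reads that are PCR copies are not independent molecules, so the intervals may be too narrow even for counting error. Regions at least 2-fold changed are counted beside the share of all regions. Scaling by the reads over all regions was tried as an alternative and changes several counts. The intervals were checked on simulated reads. Starts were counted from 0 in the files and are printed counted from 1. Every TRIB1 region is named. Neighbours, gene lists and the 5 most similar genes follow fixed rules, with up to 4 members of a list named by most HNF4A reads. MAP2K1, GPAM, MYC and FAM49B fall outside that rule and were named after their values were seen. The gene, the regions and the lists were chosen with earlier results of these data known. Sequences of this locus are not printed here.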

Additional observations from a re-analysis of the deposited data

Results flagged for a closer look

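Region F (chromosome 8, 126605656 to 126606849) was singled out because the unadjusted counting interval of the difference between its enrichments over IgG in high and low glucose excluded 0. The log2 ratio was 1.99 in high and 0.48 in low glucose, a difference of 1.51 with an exact conditional 95% interval of 0.30 to 2.70. It rests on 88 HNF4A and 20 IgG reads in high glucose, and 27 and 19 in low glucose. It was the most extreme of the 7 regions of a gene chosen by such ratios, so the interval is a description and no test, and 96.6% of all regions had a lower difference. The interval compares 4 libraries and not the conditions, it was not adjusted for the 7 regions or for the 5326, and the FDR of region F for HNF4A in high over low glucose in the authors' deposited table was 0.914.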

How the results depend on the processing

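Of 43 alternative values for 7 results, 33 stayed within the counting interval of the reported value, or within 1.5 times a count, and none of those whose interval excluded 0 changed sign. Scaling each library by its reads over all regions gave summed log2 enrichments over IgG of 0.53 in high and 0.42 in low glucose, and ratios of high over low glucose of 0.26 for HNF4A and 0.15 for IgG, and regions C and F then lay below 0 over IgG in low glucose. Regions at least 2-fold above IgG then numbered 2 in high and 2 in low glucose, where 5 and 5 are reported. These rescaled counts are not among the 43 values, and they lie outside 1.5 times the reported counts. That scaling sets each ratio summed over all regions to 0 by construction. Centring on the median of all regions gave 0.28, 0.031 and 0.21 for HNF4A over IgG in high glucose, in low glucose and for HNF4A in high over low glucose, by construction the excess over an ordinary region. In low glucose the ratio over IgG was 1.43 as the median of the regions and 1.45 without region C, whose HNF4A and IgG reads were 77 and 75. The difference of ratios, whose interval included 0, was -0.30 as the median of the regions. Leaving out region F was chosen after the data were seen. No paired analysis was possible because each group held 1 library, which also means that no replicate could be left out. The intervals are limited by the reads per region, which were 8 to 88 with IgG and 27 to 151 with HNF4A.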
